A study of Mus musculus with 2 samples.

Results

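The Gimap genes encode the GTPases of immunity-associated proteins, a family of small GTP-binding proteins found mainly in lymphocytes. The members described here were Gimap1, Gimap3, Gimap4, Gimap5, Gimap6, Gimap7, Gimap8 and Gimap9, taken by symbol from the probe annotation, with probes annotated to 1 gene alone. All 8 were measured, by 11 of the 36547 probes on the arrays, and they made up 8 of the 17501 named genes. The cells were lymphocytes of a TRP-1 mouse, a strain known for CD4 T cells with a receptor for a melanoma antigen, and they were polarized in culture as Th17, Th1 or Th0 cells. There was 1 two-colour array that compared Th17 cells, labelled with Cy5, with Th0 cells, labelled with Cy3, and 1 array compared Th1 cells, labelled with Cy5, with Th0 cells, labelled with Cy3; they are called the Th17 array and the Th1 array here. Nothing in the sources used here states the polarizing cytokines, the length of culture, the age of the mice or whether animals were pooled.

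Gimap proteins share a GTP-binding domain, and several of them sit on membranes of the endoplasmic reticulum, mitochondria, Golgi or lysosomes. They are best known for keeping resting lymphocytes alive, and some have been reported to bind proteins of the BCL-2 family, which decide whether mitochondria release death signals. In mammals the genes lie side by side in 1 cluster. Th17 cells are known for the interleukin 17 family and Th1 cells for interferon gamma, while Th0 usually names activated T cells that received no such steering cytokines.

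The values were log2 ratios of the 2 channels of each array as deposited, and precision is limited by the number of arrays, 1 per comparison, so that differences between cultures could not be tested. No source used here states which channel is the numerator. Titles and dyes name the polarized cells over Th0, but Il17a, Il17f, Il22 and Il21 lay at −5.37, −2.38, −5.79 and −4.17 on the Th17 array, and Ifng and Tbx21 at −2.02 and −1.25 on the Th1 array, which is the side opposite to that reading for the genes that define these lineages. Of 8 lineage genes measured, 5 lay at least 2-fold on the negative side of each array. The share of all named genes there was 5.52% on the Th17 array and 6.92% on the Th1 array. Il12rb2 lay at 1.01 and Il23r at −1.88 on the Th17 array, and at −0.59 and −1.02 on the Th1 array. Values are therefore printed as deposited. Read as titled, a positive value means more RNA in the polarized cells than in Th0 cells; with the ratio inverted it means less. A ratio carries no expression level, so members are compared by their ratios alone. In such bulk RNA, fewer cells of a type and less RNA per cell cannot be told apart.

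As deposited, most Gimap genes lay above 0 on the Th17 array and below 0 on the Th1 array. Gimap3 and Gimap9 lay below 0 on both. No member passed the pooled SD between probes of 1 gene, 0.50 on the Th17 array and 0.52 on the Th1 array, on both arrays. On the Th17 array 6 of the 8 lay above 0, against 46.3% of all named genes, and 2 below 0 (all genes, 53.7%), with a median of 0.24 over the 8 members beside −0.03 over all named genes. On the Th1 array all 8 lay below 0, against 57.4% of all named genes, with a median of −0.64 beside −0.08 over all named genes, although centring that array on its most repeated value put 6 of them above 0, as it did 90.4% of all named genes, whose median was then 0.77. Relative to the median of all named genes, which no centring alters, the Gimap median lay at 0.27 on the Th17 array and −0.56 on the Th1 array. Above 0 on the Th17 array and below 0 on the Th1 array were 6 of 8 members, a combination held by 17.2% of all named genes.

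The difference between the arrays, the Th17 ratio minus the Th1 ratio, lay above 0 for all 8 members, against 53.9% of all named genes, and below 0 for 0 of 8 (all genes, 46.1%). All 8 also lay above 0 under each centring tried, where the share of all named genes above 0 was 47.0% on the median of all probes, 77.7% on control genes and 16.8% on the most repeated value. A centring shifts every difference by the same amount, here down by at most 0.42, less than the smallest Gimap difference. As deposited, the median difference was 0.88 over the members and 0.04 over all named genes. The members ran from 0.44 for Gimap1 to 1.56 for Gimap4. At or above the value of Gimap1 lay 15.8% of all named genes. At least 2-fold on the positive side were 3 of 8 members, Gimap4, Gimap6 and Gimap7, against 4.53% of all named genes, and 0 of 8 lay at least 2-fold on the negative side (all genes, 3.61%). This difference rests on a pair of conditions, neither of them stated in the labels: that 1 Th0 RNA went on both arrays, and that numerator and denominator are alike in both columns. Read as titled, Th17 cells would hold more Gimap RNA than Th1 cells, and with the ratios inverted they would hold less. Only the inverted reading puts Il17a higher in Th17 cells, and Ifng higher in Th1 cells, than in Th0 cells.

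**Figure D1:**
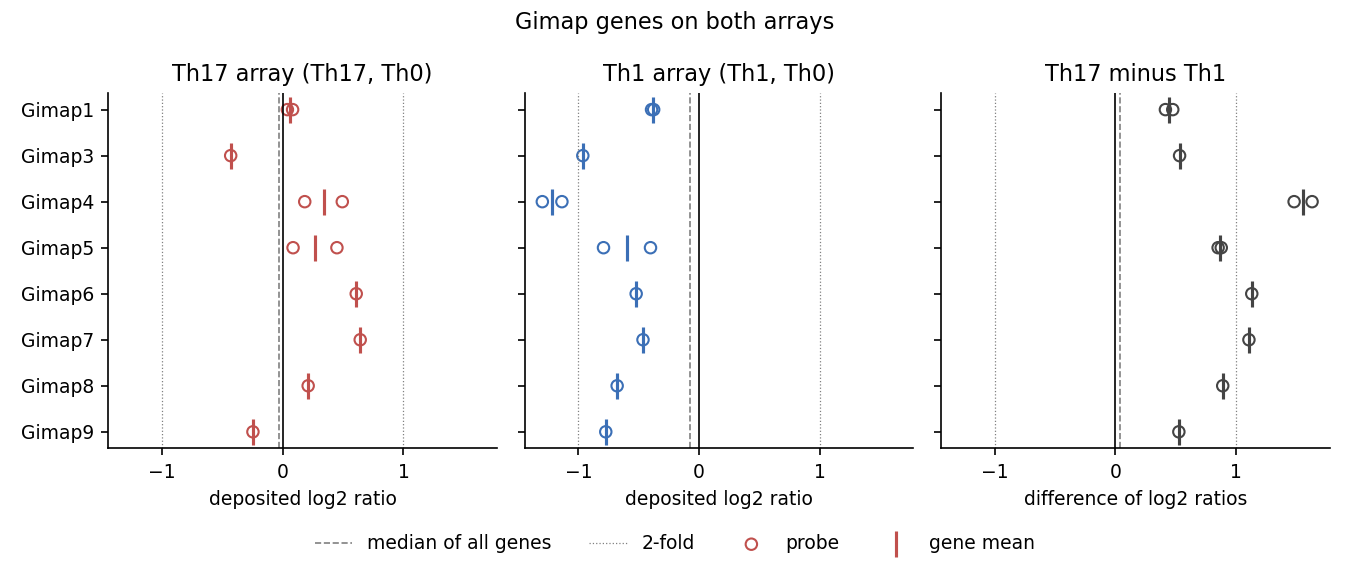
Deposited log2 ratio of each Gimap gene on the Th17 array (left) and the Th1 array (middle), and the difference of the 2 log2 ratios (right). Circles are single probes, bars the mean over the probes of a gene, the dashed line the median of all named genes and the dotted lines 2-fold. All 8 genes sit left of 0 on the Th1 array, as deposited (2 of 8 when it is centred on its most repeated value), and right of 0 in the difference, where Gimap4, Gimap6 and Gimap7 pass 2-fold.

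Promoter windows of the 3 genes past 2-fold in the difference, Gimap4, Gimap6 and Gimap7, are shown with that of Gimap1, the gene with the smallest difference, to set both ends of the family side by side. The windows hold 250 bases before and 50 after the start and come from RefSeq on GRCm38.p6, which gave 9 windows for the 8 genes, 2 of them for Gimap8. The window of Gimap4 is chr6:48684328-48684627 on the + strand, that of Gimap6 is chr6:48708195-48708494 on the − strand, that of Gimap7 is chr6:48718371-48718670 on the + strand and that of Gimap1 is chr6:48738797-48739096 on the + strand. Capitals mark matches, on either strand, to 9 motifs searched: STAT (TTCNNNGAA), ETS (AGGAAGT), RUNX (TGTGGT), Ikaros (TGGGAA), FOXO (GTAAACA), TCF/LEF (CTTTGAA), ROR (AGGTCA), AP-1 (TGANTCA) and T-box (AGGTGT).
Gimap4: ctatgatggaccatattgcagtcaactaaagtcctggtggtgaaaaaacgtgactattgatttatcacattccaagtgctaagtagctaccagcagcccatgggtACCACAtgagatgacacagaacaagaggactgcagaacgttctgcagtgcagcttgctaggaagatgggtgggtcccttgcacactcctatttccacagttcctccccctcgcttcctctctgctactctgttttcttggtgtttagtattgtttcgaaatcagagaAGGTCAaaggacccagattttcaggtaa
Gimap6: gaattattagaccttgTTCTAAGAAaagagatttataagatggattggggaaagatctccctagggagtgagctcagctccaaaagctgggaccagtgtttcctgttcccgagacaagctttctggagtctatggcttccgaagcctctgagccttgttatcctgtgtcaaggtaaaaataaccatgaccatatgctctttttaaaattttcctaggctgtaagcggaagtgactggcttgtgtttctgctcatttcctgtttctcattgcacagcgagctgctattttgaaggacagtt
Gimap7: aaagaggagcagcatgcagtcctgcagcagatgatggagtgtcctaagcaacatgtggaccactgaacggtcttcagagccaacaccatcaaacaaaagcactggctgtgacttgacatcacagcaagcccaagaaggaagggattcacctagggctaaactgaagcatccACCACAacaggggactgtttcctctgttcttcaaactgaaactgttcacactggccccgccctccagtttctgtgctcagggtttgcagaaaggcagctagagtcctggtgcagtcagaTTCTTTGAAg
Gimap1: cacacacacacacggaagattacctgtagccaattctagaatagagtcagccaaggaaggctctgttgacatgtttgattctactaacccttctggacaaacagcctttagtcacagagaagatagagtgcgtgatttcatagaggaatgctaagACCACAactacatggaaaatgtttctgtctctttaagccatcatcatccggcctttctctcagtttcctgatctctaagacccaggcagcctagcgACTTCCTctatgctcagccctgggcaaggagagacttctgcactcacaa

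The STAT letters were in 4 of the 9 Gimap windows and in 8.30% of all 32851 promoter windows. In Gimap6 they began 234 bases before the start, and in Gimap7 at base 41 after it, where they overlap the TCF/LEF match that begins at base 43. The other 2 windows with STAT letters belong to Gimap3 and to 1 of the 2 starts of Gimap8. The ETS letters were in 3 of 9 windows (Gimap1, Gimap5 and Gimap9) and in 9.35% of all windows, and the RUNX letters in 3 of 9 (Gimap1, Gimap4 and Gimap7) and in 16.8% of all windows. Of the 3 genes past 2-fold in the difference, Gimap4 and Gimap7 held RUNX letters and Gimap6 and Gimap7 held STAT letters, so no motif of the 9 was in all 3. The ROR letters were in 1 Gimap window, that of Gimap4, and in 16.3% of all windows. The AP-1 and T-box letters were in 0 of 9 Gimap windows and in 7.81% and 13.7% of all windows. Such matches describe the letters in these windows and nothing about binding. The windows of the family had a median GC content of 48.0%, against 52.7% over all windows.

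Gimap4, which is known to speed the death of T cells in mice, was the lowest member on the Th1 array and had the largest difference of the 8 (NCBI gene 107526). Its 2 probes lay at 0.49 and 0.18 on the Th17 array, and at −1.14 and −1.30 on the Th1 array. Both probes were thus on the positive side of the first and past 2-fold on the negative side of the second. The probe averages were 0.34 ± 0.22 on the Th17 array and −1.22 ± 0.11 on the Th1 array (SD between 2 probes, not between samples). At 2-fold on the negative side, the count of members was 0 of 8 on the Th17 array (all genes, 5.52%) and 1 of 8, Gimap4, on the Th1 array (all genes, 6.92%), and on the positive side it was 0 of 8 on both (all genes, 2.9% on the Th17 array and 3.27% on the Th1 array). The difference was 1.56 ± 0.11 (2.94-fold), and 98.3% of named genes had a lower one. One of its probes was annotated to both transcripts that the platform lists for the gene and the other to a single one.

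Gimap6 and Gimap7 lay highest on the Th17 array. Gimap6, which binds the autophagy protein Gabarapl2 (NCBI gene 231931), lay at 0.61 on that array and at −0.52 on the Th1 array. Its difference was 1.13 (2.19-fold). Gimap7, whose human counterpart forms dimers that switch on its GTPase activity (NCBI gene 231932), lay at 0.64 on the Th17 array and at −0.46 on the Th1 array. Its difference was 1.11 (2.15-fold). Both genes had 1 probe and nearly the same pair of values, and on the Th17 array 92.7% and 93.3% of named genes lay below Gimap6 and Gimap7.

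Gimap5 and Gimap3 are close relatives in mice. Gimap5 is a protein of lysosomal membranes whose loss depletes T cells in rats and mice (NCBI gene 317757). Its 2 probes lay at 0.09 and 0.45 on the Th17 array, and at −0.79 and −0.40 on the Th1 array. The first probe was the lower one on both arrays, by a like amount, so that the differences of the 2 probes were 0.88 and 0.85 and their SD was 0.018, against 0.26 on the Th17 array and 0.28 on the Th1 array. Gimap3, which is known to affect how mitochondrial DNA segregates in blood cells of mice (NCBI gene 83408), lay at −0.43 on the Th17 array and at −0.96 on the Th1 array. It was the lowest member on the first array and the second lowest on the other, and its difference was 0.53 (1.45-fold), against 0.86 (1.82-fold) for Gimap5. Where members resemble each other, a probe may also pick up RNA of a relative, and the probe sequences were not analysed here.

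Gimap1, which mature B and T cells of mice need to survive (NCBI gene 16205), had the smallest difference. Its 2 probes lay at 0.08 and 0.04 on the Th17 array, and at −0.39 and −0.38 on the Th1 array, with a difference of 0.44 ± 0.043 (SD between 2 probes; 1.36-fold). Gimap8, a member with several GTP-binding domains (NCBI gene 243374), lay at 0.21 on the Th17 array and at −0.68 on the Th1 array, a difference of 0.89 (1.85-fold). Gimap9 (NCBI gene 317758) lay at −0.25 on the Th17 array and at −0.77 on the Th1 array, a difference of 0.53 (1.44-fold). Gimap3 and Gimap9 were therefore the 2 members below 0 on both arrays.

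From high to low, the members on the Th17 array were Gimap7, Gimap6, Gimap4, Gimap5, Gimap8, Gimap1, Gimap9 and Gimap3. On the Th1 array the order was Gimap1, Gimap7, Gimap6, Gimap5, Gimap8, Gimap9, Gimap3 and Gimap4. Gimap4 was thus among the higher members on the first array and at the bottom on the second. None of the 7 gaps between neighbours in either order, nor in that of the difference, exceeded the pooled SD between probes of 1 gene, which was 0.50 on the Th17 array, 0.52 on the Th1 array and 0.52 for the difference, over 5871 genes with 2 to 19 probes. From top to bottom the members spanned 1.07 on the Th17 array and 0.83 on the Th1 array. All 8 differences were positive, and as deposited those of Gimap4, Gimap6, Gimap7, Gimap8, Gimap5, Gimap3 and Gimap9 were also larger than the pooled SD, the last by little at 0.53. Centred on the median of all probes, Gimap3 and Gimap9 fell below that SD, at 0.47 and 0.46. Centring on the most repeated value lowers each difference by 0.42, after which only those of Gimap4, Gimap6 and Gimap7 exceed it.

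**Figure D2:**
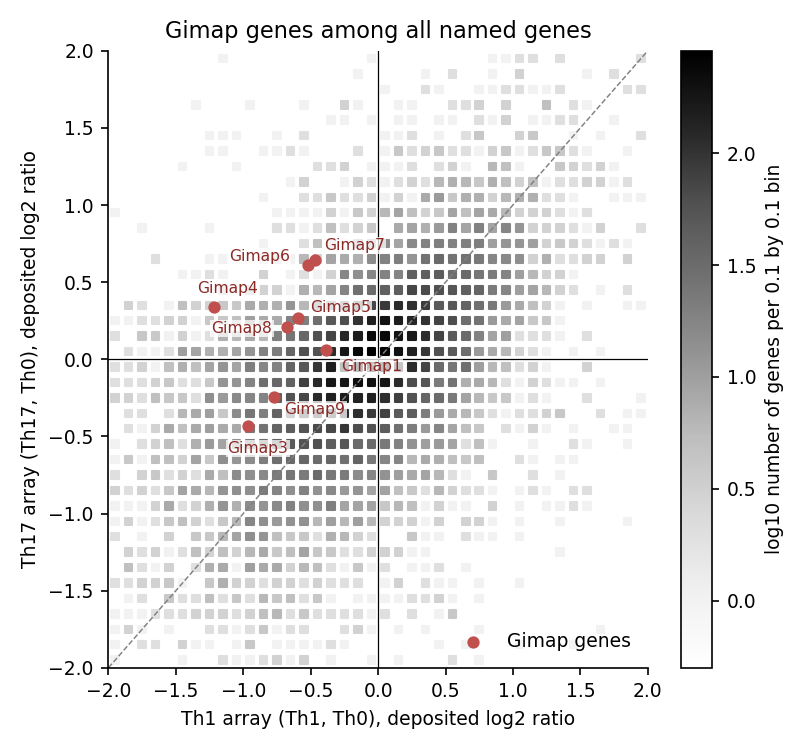
Deposited log2 ratio on the Th17 array (vertical) against that on the Th1 array (horizontal), with the number of named genes per bin in grey on a log10 scale and the 8 Gimap genes in red. The dashed line marks equal ratios on both arrays, and 562 of 17501 genes lie outside the axes. All Gimap genes lie above the dashed line, 6 of them, in the ratios as deposited, above 0 on the vertical and below 0 on the horizontal axis.

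The arrays give some hint of signal strength, because ratios of small whole numbers recur in the deposited values. Whole-number signals with at most 10 units in the dimmer channel could account for the ratio of 0 of the 11 Gimap probes on the Th17 array and of 1 on the Th1 array, that of Gimap8 with 8 units, against 3.75% of all probes on the Th17 array and 5.12% on the Th1 array.

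The Gimap genes form an unbroken run on chromosome 6 in the RefSeq gene order, from Gimap8 through Gimap9, Gimap4, Gimap6, Gimap7, Gimap1 and Gimap5 to Gimap3, with 0 other protein-coding genes between them. Of the 6 protein-coding genes on each side, 9 of 12 were measured. The difference between the arrays ran from −1.25 to 0.35 over these 9 neighbours, so the lowest Gimap gene, Gimap1 at 0.44, lay above the highest neighbour, Atp6v0e2 at 0.35, by less than the pooled SD between probes. Their median difference was −0.09, and 4 of 9 lay above 0 (all genes, 53.9%). Next to Gimap8, the zinc finger gene Zfp775 lay at −0.13 on the Th17 array and −0.27 on the Th1 array. Next to Gimap3, the membrane protein gene Tmem176b lay at −0.96 on the Th17 array and at 0.29 on the Th1 array, and its neighbour Tmem176a at −0.94 on the Th17 array and 0.02 on the Th1 array. Their differences were −1.25 and −0.96, on the side opposite to that of the Gimap genes. Tmem176b was the 1 neighbour of 9 at least 2-fold apart in the difference, on the negative side (all genes, 3.61%).

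**Figure D3:**
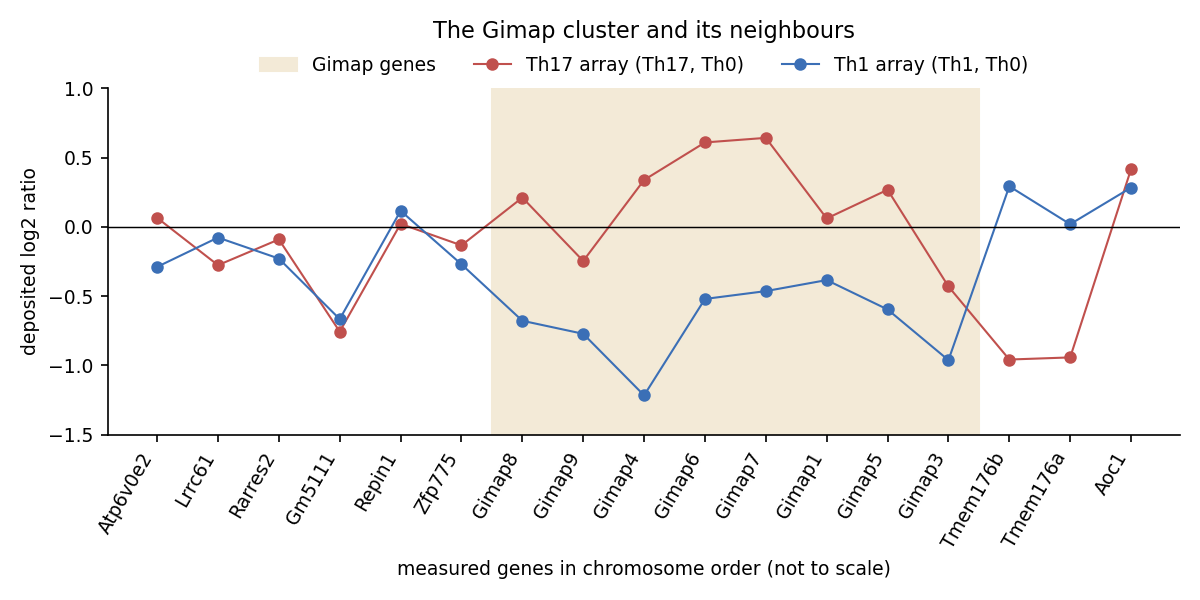
Deposited log2 ratios on the Th17 array (red) and the Th1 array (blue) for the measured protein-coding genes along the cluster, in chromosome order and not to scale. Within the shaded run of 8 Gimap genes the red points lie above the blue ones throughout. Among the 9 measured neighbours the order is turned at 5 (all genes, 46.1%). These are Lrrc61, Gm5111, Repin1, Tmem176b and Tmem176a, with the widest gaps at Tmem176b and Tmem176a.

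The family was set beside lists of T cell genes, because Gimap genes are known from resting T cells. The sides given for lists are those of the deposited ratios: centring on the most repeated values raises each ratio by 0.43 on the Th17 array and 0.85 on the Th1 array and lowers each difference by 0.42, and centring on control genes raises each difference by 0.27. Under at least 1 centring the median difference changed sign for the general T cell, naive and quiescent T cell, B cell, CD8 T and NK cell, BCL-2, Atg8 and control lists, and under none for the Gimap genes, the interferon-inducible GTPases and the myeloid genes. Genes of naive and quiescent T cells had a median of −0.88 on the Th17 array and −0.64 on the Th1 array over 10 of 12 members measured. Ccr7, a lymph node homing receptor, lay at −2.25 on the Th17 array and −1.20 on the Th1 array, and Il7r, the receptor for a survival cytokine, at −0.79 on the Th17 array and −1.29 on the Th1 array. On the Th1 array the median of that list and that of the Gimap genes were alike to 2 decimals, at −0.64 each, whereas on the Th17 array the Gimap median was 0.24. The difference of the naive and quiescent list had a median of −0.05 and 5 of 10 members above 0 (all genes, 53.9%). In that list 1 gene, Ccr7, passed 2-fold, on the negative side (all genes, 3.61%). General T cell genes had a median of −0.41 on the Th17 array and −0.69 on the Th1 array over 13 of 14 members, and whether the T cell markers were high or low in either population cannot be read from ratios. Their difference had a median of 0.12, with 7 of 13 above 0 (all genes, 53.9%) and 2 at least 2-fold positive (all genes, 4.53%). These 2 were Trat1, an adaptor of the T cell receptor, at 2.60, and Cd28, a costimulatory receptor, at 1.31.

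The interferon-inducible GTPases are another set of immune GTPases, several of which attack vacuoles that hold microbes. They had a median of 0.05 on the Th17 array and −0.27 on the Th1 array over 15 members. Their difference had a median of 0.74, with 12 of 15 members above 0 (all genes, 53.9%). At least 2-fold were 5 on the positive side (all genes, 4.53%) and 0 on the other (all genes, 3.61%). Gbp7 lay at 1.28 on the Th17 array and −0.27 on the Th1 array, and Gbp2 at 0.01 on the Th17 array and −1.49 on the Th1 array, a difference of 1.54 for Gbp7 and of 2.83-fold for Gbp2. Gbp3, Igtp and Mx1 differed by 1.39, 1.20 and 1.20.

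Markers of other cell types were also compared between the arrays. Myeloid genes lay above 0 in 9 of 15 measured members on the Th17 array (−2.04 to 2.14, median 0.56). On the Th1 array 15 of 15 lay above 0 (0.03 to 2.98, median 1.80). Of all named genes, 46.3% lay above 0 on the Th17 array and 42.6% on the Th1 array. The myeloid genes had a median difference of −1.21, with 12 of 15 below 0 (all genes, 46.1%). At least 2-fold negative were 8 (all genes, 3.61%), among them Mpeg1 at −2.93 and Cd14 at −2.88. The 3 above 0 were C1qc at 0.22, S100a9 at 0.16 and C1qb at 0.02. The negative side is opposite to that of the Gimap genes, and the part of myeloid RNA in the Gimap values was not tested. B cell genes had a median of −0.00075 on the Th17 array and −0.15 on the Th1 array over 9 of 10 members. Their median difference was 0.13, with 0 at least 2-fold on either side (all genes, 4.53% positive and 3.61% negative). Genes of CD8 T cells and NK cells had a median of −0.27 on the Th17 array and −0.35 on the Th1 array over 8 members. They spread widely on both, from Klrc1 at −2.17 to Klrb1c at 3.72 on the Th17 array. On the Th1 array the same genes lay at −2.49 and 3.22. The list had a median difference of 0.41, with 6 of 8 above 0 (all genes, 53.9%). At least 2-fold positive were 2 (all genes, 4.53%), Klra3 at 1.72 and Klrd1 at 1.08, while Ncr1 lay lowest at −0.58. Widely expressed control genes had a median of −0.02 on the Th17 array and 0.25 on the Th1 array over 13 of 15 members, and a median difference of −0.20. Subtracting these medians from the arrays raises each difference by 0.27, so the Gimap differences, all positive before, could not turn negative. They then ran from 0.72 to 1.83.

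**Figure D4:**
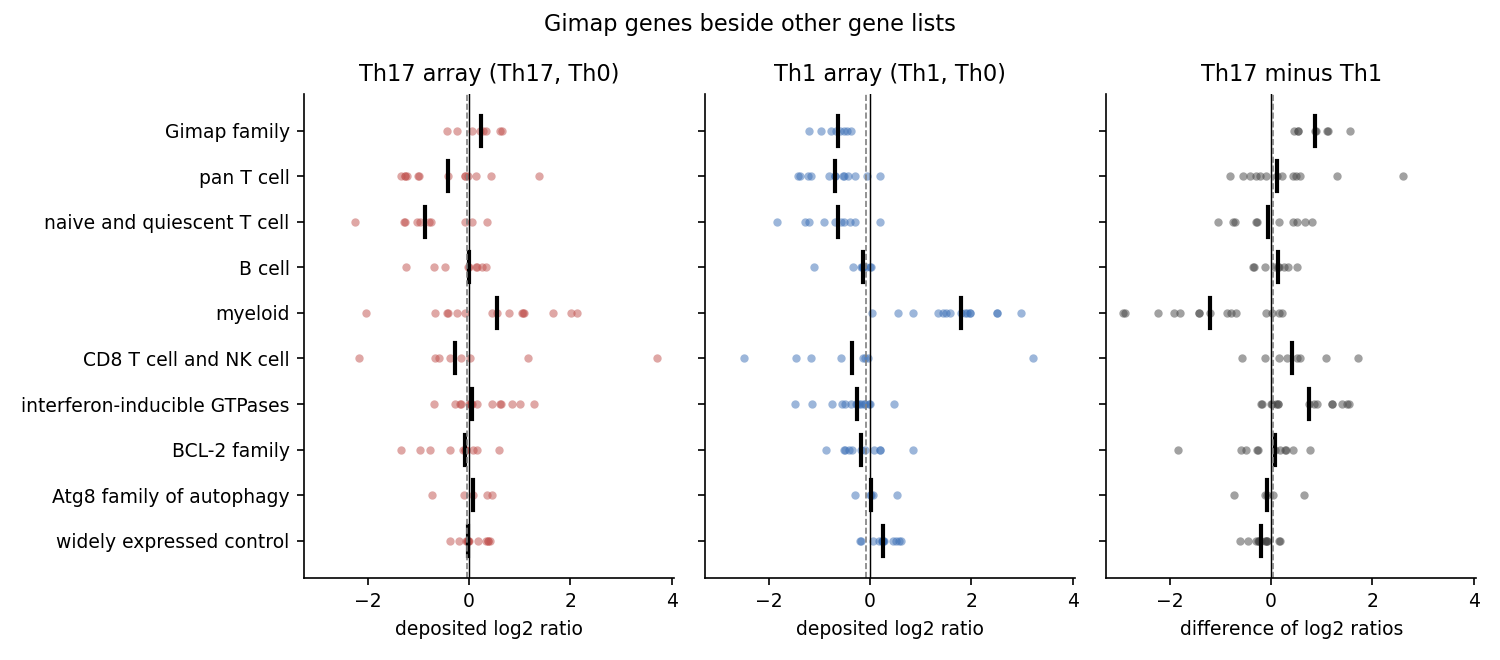
Deposited log2 ratios of the members of each gene list on the Th17 array (left) and the Th1 array (middle), and their difference (right). Points are genes, black bars list medians and the dashed line the median of all named genes. In the difference, under each centring tried, the Gimap median and the interferon-inducible GTPase median stay right of 0 and the myeloid median left of 0; as drawn, the Gimap median of 0.88 and the interferon-inducible GTPase median of 0.74 stand opposite the myeloid median of −1.21.

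Genes of proteins that Gimap proteins are reported to meet showed no such shared side. Of the 5 Atg8 family genes, whose products tag autophagosomes, Gabarapl2, the partner of Gimap6, lay at 0.35 on the Th17 array and −0.29 on the Th1 array, a difference of 0.64. Gabarapl1, Map1lc3a, Gabarap and Map1lc3b differed by −0.73, −0.12, −0.08 and 0.03. Thus 2 of 5 lay above 0 (all genes, 53.9%) and 0 of 5 passed 2-fold (all genes, 4.53% positive and 3.61% negative). BCL-2 family genes had a median difference of 0.08 over 11 of 12 members, with 6 above 0 (all genes, 53.9%). In this family 1 gene, Bcl2a1a, passed 2-fold, on the negative side (all genes, 3.61%). Bcl2, the survival gene that names the family, lay at −0.38 on the Th17 array and 0.20 on the Th1 array. Bcl2l11, which encodes the death factor Bim, lay at 0.59 on the Th17 array and −0.18 on the Th1 array, a difference of 0.77. Bcl2a1a, another survival gene with near-identical copies that may share its probe, lay at −0.97 on the Th17 array and 0.86 on the Th1 array, a difference of −1.83.

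The genes whose pair of values lay nearest to the pair of Gimap medians, 0.24 on the Th17 array and −0.64 on the Th1 array, were Tiparp, Pde3b, Ifi205, Slc1a6 and Cxcl12, at Euclidean distances of 0.012, 0.012, 0.018, 0.019 and 0.026 log2 units over the 2 arrays. With 2 values per gene such nearness is common, and 414 of the 17493 other named genes (2.37%) lay within 0.25 log2 units of that pair. Single probes of Ifi205, Cxcl12 and Pde3b departed from their mean by more than the pooled SD between probes, so these 3 are near by their average alone.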

How the data were processed

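RNA of Th17, Th1 and Th0 lymphocytes was column-purified, and 500 ng was amplified with amino allyl labelling, per the labels' protocols. The deposited table holds 1 value per probe and array, taken as log2 ratios as processed by the authors, a unit settled from the values: repeated values are spaced by log2 of small whole-number ratios around −0.4263 (Th17 array) and −0.8485 (Th1 array). The whole-number search takes the most repeated value of an array as that of equal signals in both channels, so centring on it sets 0 at equal signal. No source used here states the scanner, background correction, normalization or numerator. The median of all probes was −0.045 on the Th17 array and −0.11 on the Th1 array, so neither was centred on 0. No value column was left unused (0).

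Probes with 1 annotated gene (26926) were kept; 203 with several genes and 9418 unnamed were not. Of the 26926 probes, 26774 matched a current gene number. Probes of a gene were averaged (Python 3.11.15, pandas 2.3.3, numpy 2.4.6, figures with matplotlib 3.10.9). A gene was counted at an absolute log2 value of at least 1. Averaging, counting and the whole-number search (tolerance 0.0001 log2) were tested on simulated data. With 1 array a comparison no p-value was computed.

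Members and lists were chosen with earlier results of these data known. Named genes are all members, up to 4 per list with the largest absolute value on each array or in the difference, all Atg8 and lineage genes, 6 neighbours on each side of the cluster and the 5 genes nearest in pattern. RefSeq (GRCm38.p6) gave names, gene order and promoters; no source used here names a build for the array. Alternatives changed the centring, the rule for several probes, the probes used and the threshold.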

Additional observations from a re-analysis of the deposited data

Results flagged for a closer look

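The values of 6 Gimap genes lay on opposite sides of 0 on the Th17 and Th1 arrays, and the difference was not tested, since each comparison has 1 array. None of these genes passed the pooled SD between probes on both arrays (0.50 on the Th17 array, 0.52 on the Th1 array), the bar set for the other genes below. The difference of the log2 ratios was 1.56 for Gimap4, 1.13 for Gimap6, 1.11 for Gimap7, 0.89 for Gimap8, 0.86 for Gimap5 and 0.44 for Gimap1. With both arrays centred on their most repeated value, 6 of 8 Gimap genes lay above 0 on the Th1 array too (all genes, 90.4%). The opposite sides thus depend on where 0 is set. That centring lowers each difference by 0.42, less than the smallest of the 8, so all 8 remained positive.

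Among the other genes named here, 7 lay, as deposited, on opposite sides by more than the pooled SD between probes on each array. This was not tested either. Genes of most lists were named for large absolute values, and the share of all named genes past this bar is not given here. Trat1 differed by 2.60, Tbx21 by 2.12, Klra3 by 1.72, Il12rb2 by 1.61 and Gbp3 by 1.39, all positive on the Th17 array and negative on the Th1 array. Cd14 differed by −2.88 and Bcl2a1a by −1.83, both negative on the Th17 array and positive on the Th1 array. Centring on the most repeated value raises each ratio of the Th1 array by 0.85. That puts Gbp3, Il12rb2 and Klra3 above 0 there (−0.55, −0.59 and −0.57 as deposited). Trat1 and Tbx21 then lie below 0 on the Th1 array by less than the pooled SD.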

How the results depend on the processing

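Under centring on the median of all probes, control genes or the most repeated value, all 8 Gimap differences stayed above 0. These differences between the Th17 and the Th1 array had a median from 0.45 to 1.15 and a lowest gene from 0.02 to 0.72. Each centring shifts all differences by the same amount, and none lowered them by as much as the smallest Gimap difference as deposited, 0.44. Centring on the most repeated value moved the Gimap median of the Th1 array to 0.21, with 6 of 8 genes above 0 and 0 at least 2-fold negative (all genes, 1.70%), put 2 at least 2-fold positive on the Th17 array (all genes, 8.17%), and left 1 gene at least 2-fold positive in the difference (all genes, 2.11%). It also moved the median of all named genes to 0.39 on the Th17 array and 0.77 on the Th1 array, and relative to the median of all named genes the Gimap medians were 0.27 and −0.56 under each centring. Centring on control genes moved the median of all named genes of the Th1 array to −0.33, put 3 Gimap genes at least 2-fold negative there (all genes, 11.6%) and 5 at least 2-fold positive in the difference (all genes, 7.86%). Of all 2-fold calls of the Th1 array, the negative ones made up 67.9%, 56.5% when centred on the median, 86.4% on control genes and 5.39% on the most repeated value. On the Th17 array these shares were 65.5%, 62.0%, 63.6% and 25.4%, and in the difference 44.4%, 51.1%, 22.7% and 81.8%. At 1.5-fold, 2 Gimap genes were positive on the Th17 array, 5 negative on the Th1 array and 5 positive in the difference (all genes, 7.88%, 16.5% and 11.2%), and at 3-fold 0 passed on either array or in the difference. The choice of probe left each Gimap count as it was, and 5 of 8 members have 1 probe and cannot move with the choice of probe. Lyz2, a myeloid gene with 4 probes, turned to −1.35 on the Th1 array and 0.93 in the difference when the probe with the smallest absolute value was used, and the cause was not tested. No paired analysis was possible because each group has 1 array. Signal over background was not given, so precision at low signal is unknown.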
